A study of Mus musculus with 6 samples.

Results

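Nucleotide synthesis and salvage is described here through 32 genes, chosen by name from a table of 26529 mouse genes, in cultured osteoclasts and their precursors. The list was split by pathway into 18 purine genes, 10 pyrimidine genes and 4 genes that serve both branches, and every gene of it was found in the table. RNA had been sequenced from 6 libraries of bone marrow-derived macrophages of wild-type C57BL/6 mice aged 8 weeks. By the labels, osteoclasts (OC, 3 libraries) were taken on day 6 of culture and osteoclast precursors (OCP, 3 libraries) on day 3. Both groups had received the same factors, M-CSF at 20 ng/ml, which keeps macrophages alive, and RANKL at 10 ng/ml, which drives osteoclast formation, so time in culture is what differs. No label ties the replicates to separate mice or cultures, so p-values measure the spread between these libraries, which may be technical.

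Cells make purines and pyrimidines either from small precursors (de novo synthesis) or by recycling bases and nucleosides (salvage). In the purine branch a ring is built step by step on phosphoribosyl pyrophosphate (PRPP) until inosine monophosphate (IMP), from which AMP and GMP are made. In the pyrimidine branch the ring is built first and then joined to PRPP, giving UMP and later CTP. Both routes are described in macrophages, and osteoclasts form from these cells by fusion rather than by division.

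Levels are given as RPKM, reads per kilobase of gene scaled to the reads a library had on all genes, which allows levels of different genes to be set side by side. Reads summed over all genes came to between 33219178 and 42121216 per library. A read in exons shared by several genes may enter these sums more than once. A tested member had from 122 to 12404 reads in a library. The test, limma on log2(RPKM + 1), took the 12301 genes that reached 1 RPKM in 3 or more of the 6 libraries, and "rose" and "fell" below mean an adjusted p under 0.05 for OC against OCP. Fold changes are OC minus OCP on that log2 scale, which understates changes of low genes, and ratios are of mean RPKM.

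The libraries labelled OC did not have more of the osteoclast transcripts. All 10 listed osteoclast markers, among them Acp5 and Ctsk, fell, against 32.1% of all tested genes. Their summed levels were 2730 to 2815 RPKM in OC and 5104 to 5261 RPKM in OCP. Of 10 macrophage markers 9 were tested, of which 7 rose (77.8%, against 23.5% of all tested genes) and 2 fell (22.2%, against 32.1%). The sums of the 10 were 1556 to 1625 RPKM in OC and 1390 to 1457 RPKM in OCP. Of 9 neutrophil markers 8 were in the table and 3 were tested. All of these 3 rose (100%, against 23.5% of all tested genes). The sums of the 8 were 48.9 to 53.3 RPKM in OC and 34.5 to 38.1 RPKM in OCP. Markers of B, T, erythroid and stromal cells did not reach the filter, at 1.08 RPKM or less in every library. Of 14 genes of DNA replication and mitosis 7 fell and 1 rose, with sums of 190 to 196 RPKM in OC and 219 to 228 RPKM in OCP. Of 9 mitochondrially encoded genes, listed as signs of RNA quality, 7 fell (77.8%, against 32.1%) and 1 rose (11.1%, against 23.5%). The part of these shifts in the results below was not tested, and in such bulk samples fewer cells of a type and less RNA per cell cannot be told apart. Whether the labels match the cells was not tested either, and "rose" and "fell" follow the labels throughout.

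As a whole the list moved about as often as other genes in the main test, and more often than they did after scaling by TMM factors. Of its 31 tested members 8 rose (25.8%), against 23.5% of all tested genes, and 11 fell (35.5%), against 32.1% of all tested genes. All 3 OC libraries lay above all 3 OCP libraries for 10 members (32.3%), against 26.7% of all tested genes. They lay below them for 12 members (38.7%), against 36.0%. The median log2 fold change of the 31 was -0.09, where that of all tested genes was -0.05. After scaling by TMM factors 11 of the 31 members rose (35.5%), against 26.3% of all tested genes, and 11 fell (35.5%), against 28.5%. Dhodh failed the filter and was not tested. The purine branch had 4 genes that rose (22.2%, against 23.5%), 7 that fell (38.9%, against 32.1%) and 7 that did not pass. Its median log2 fold change was -0.11. The pyrimidine branch, with 9 tested genes, had 3 that rose (33.3%, against 23.5%), 2 that fell (22.2%, against 32.1%) and 4 that did not pass. Its median was 0.10. Among the genes that serve both, 1 rose, 2 fell and 1 did not pass. No test of a difference between the branches was made.

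**Figure D1:**
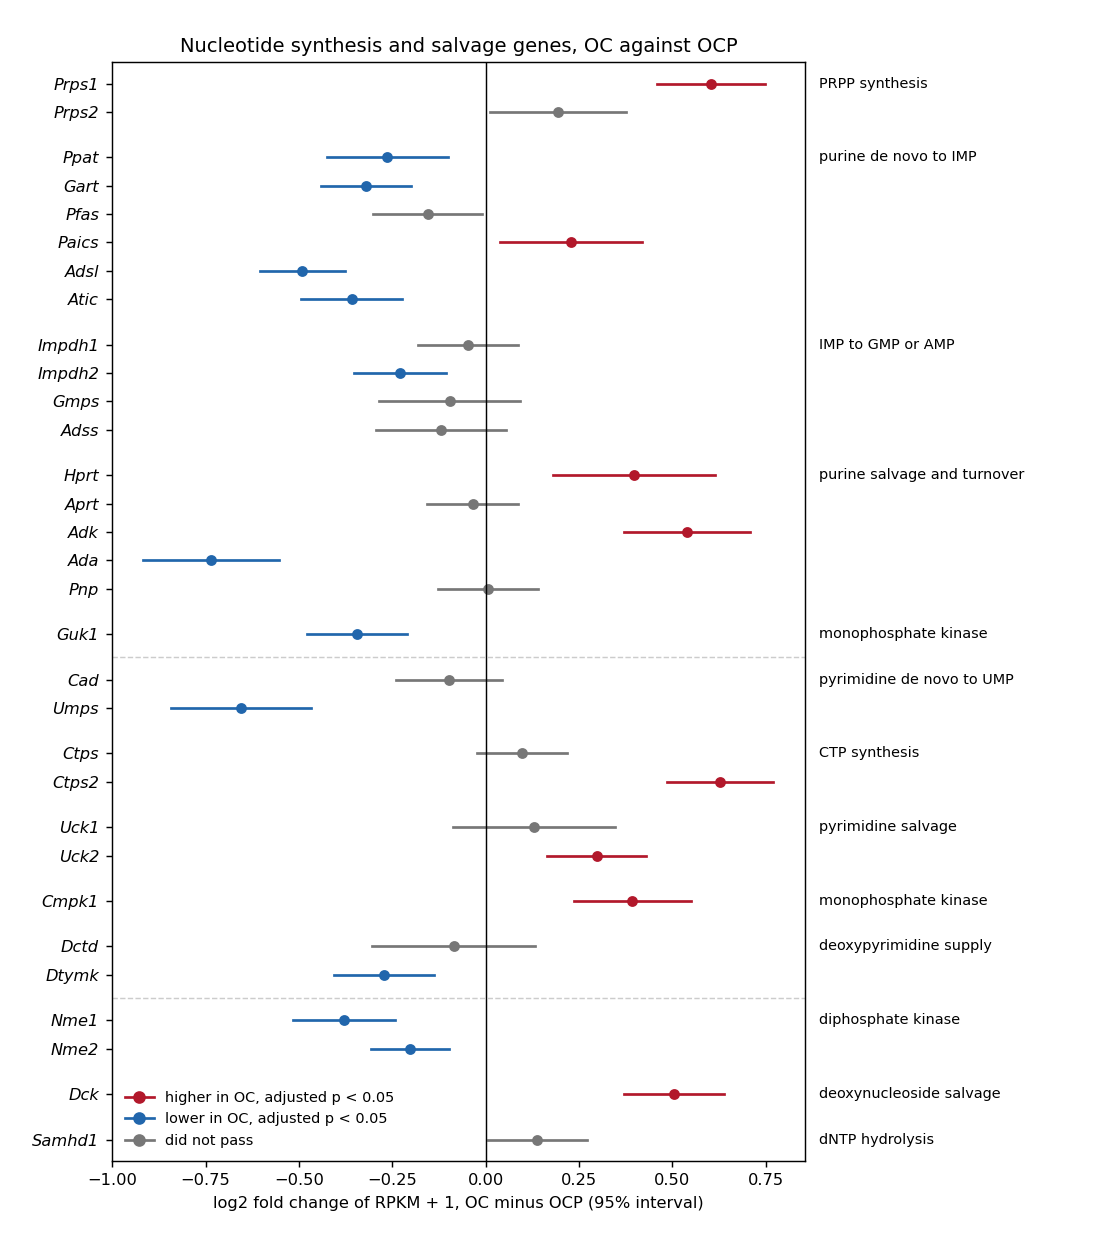
Log2 fold change of RPKM + 1 (OC minus OCP, horizontal axis) of the 31 tested genes, ordered from top to bottom by role in the purine branch, the pyrimidine branch and both. Points are limma estimates with 95% intervals that are not adjusted for the number of genes. The estimates run from -0.74 for Ada to 0.63 for Ctps2.

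The members were also grouped by role, with the values known. Of the 9 enzymes that build IMP and UMP de novo, 8 were tested. Of these 5 fell (62.5%, against 32.1% of all tested genes) and 1 rose (12.5%, against 23.5%). The summed level of the 9 was 79.5 to 83.4 RPKM in OC and 97.3 to 102 RPKM in OCP. A set of 6 enzymes salvages a base or nucleoside directly to a monophosphate (Hprt, Aprt, Adk, Uck1, Uck2 and Dck). Of these 4 rose (66.7%, against 23.5% of all tested genes) and 0 fell (against 32.1%). Their summed level was 107 to 118 RPKM in OC and 93.9 to 98.5 RPKM in OCP. This set leaves out Ada and Pnp. For the 5 genes of purine salvage and turnover together (Hprt, Aprt, Adk, Ada and Pnp), 2 rose (40.0%, against 23.5%) and 1 fell (20.0%, against 32.1%). Their summed levels overlapped, at 153, 139 and 152 RPKM in OC and 143, 131 and 137 RPKM in OCP. Outside the list Tk1 (-0.26, adjusted p = 0.022) and Uckl1 (-0.21, adjusted p = 0.030), kinases that also salvage nucleosides, fell. Tk2 and Dguok, nucleoside kinases that are also outside the list, did not pass (adjusted p = 0.64 and 0.17).

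Promoter sequences are shown for Ppat and Paics, because these neighbours start next to each other on opposite strands and moved in opposite directions. The rise of Paics is an unsteady call, lost in 7 of 14 alternative settings of the test. Ppat lies on the minus strand of chromosome 5 (76913249 to 76951578) and Paics on the plus strand (76951307 to 76967509, GRCm38), and their 5′ ends overlap by 272 bases. The windows run from 250 bases before to 50 bases after the RefSeq start (GRCm38.p6), 5′ to 3′ on the strand of the gene, and capitals mark CACGTG, the E-box hexamer, a palindrome that reads the same on both strands. The windows are chr5:76951529-76951828 (minus strand) and chr5:76951052-76951351 (plus strand).
Ppat: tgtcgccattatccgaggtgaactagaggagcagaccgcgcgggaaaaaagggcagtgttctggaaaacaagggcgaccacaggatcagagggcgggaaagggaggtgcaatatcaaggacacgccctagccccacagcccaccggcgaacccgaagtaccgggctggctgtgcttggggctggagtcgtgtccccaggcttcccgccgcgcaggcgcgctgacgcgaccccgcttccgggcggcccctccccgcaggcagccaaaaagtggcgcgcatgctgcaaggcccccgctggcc
Paics: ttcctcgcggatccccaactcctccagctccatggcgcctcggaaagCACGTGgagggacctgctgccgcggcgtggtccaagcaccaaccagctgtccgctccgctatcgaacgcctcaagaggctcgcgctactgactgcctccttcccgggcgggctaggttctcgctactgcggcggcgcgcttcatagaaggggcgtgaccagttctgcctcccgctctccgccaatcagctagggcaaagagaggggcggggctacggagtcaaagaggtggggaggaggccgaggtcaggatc
The Paics window holds 1 such hexamer, 203 bases before the start, and the Ppat window holds 0. The whole Paics window, with this hexamer, lies inside the span of the Ppat gene, so the site is not apart from Ppat.

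The E-box hexamer was searched because it is the motif bound by MYC family proteins, known in other cells as regulators of nucleotide synthesis genes. RefSeq windows were found for 30 of the 32 genes, 41 windows in all, and a gene was counted if any of its windows had the hexamer. All 27025 genes with a window had 32851 windows, and windows per gene were not adjusted for. The hexamer was found in 5 of the 30 genes, against 8.09% of the 27025 genes and 11.9% of the 8004 tested ones. Besides Paics these were the following, shown with 12 bases on each side.
Atic: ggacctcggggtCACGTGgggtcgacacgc
Impdh2: gagctcgataagCACGTGgttacccagctc
Nme1: gctgcggggaacCACGTGaggccggggagc
Dtymk: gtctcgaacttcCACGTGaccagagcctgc
They lie at chr1:71557137-71557166 (plus strand), chr9:108560314-108560343 (plus strand), chr11:93968273-93968302 (minus strand) and chr1:93802065-93802094 (minus strand). Nme1 has another hexamer near its other listed start. Of the 5 genes with the hexamer Paics rose, a call lost in 7 of 14 alternatives, and Atic, Impdh2, Nme1 and Dtymk fell. A match of letters is a description and says nothing of binding.

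PRPP, the sugar that both branches use, is made by PRPP synthetases. Prps1 (X chromosome, 140456613 to 140476140, plus strand) had 6.19, 6.71 and 6.73 RPKM in OC, against 3.93, 4.22 and 3.74 RPKM in OCP. Every OC library was above every OCP library, and Prps1 rose 1.65-fold (log2 fold change 0.60, SE 0.06, adjusted p = 0.00011). Its paralog Prps2, also on the X chromosome (167346322 to 167382749), was lower, with 2.00, 1.74 and 2.03 RPKM in OC and 1.73, 1.55 and 1.38 RPKM in OCP. The groups of Prps2 lay only just apart and it did not pass (log2 fold change 0.19, adjusted p = 0.067). It passed with TMM factors and in 3 other alternatives.

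**Figure D2:**
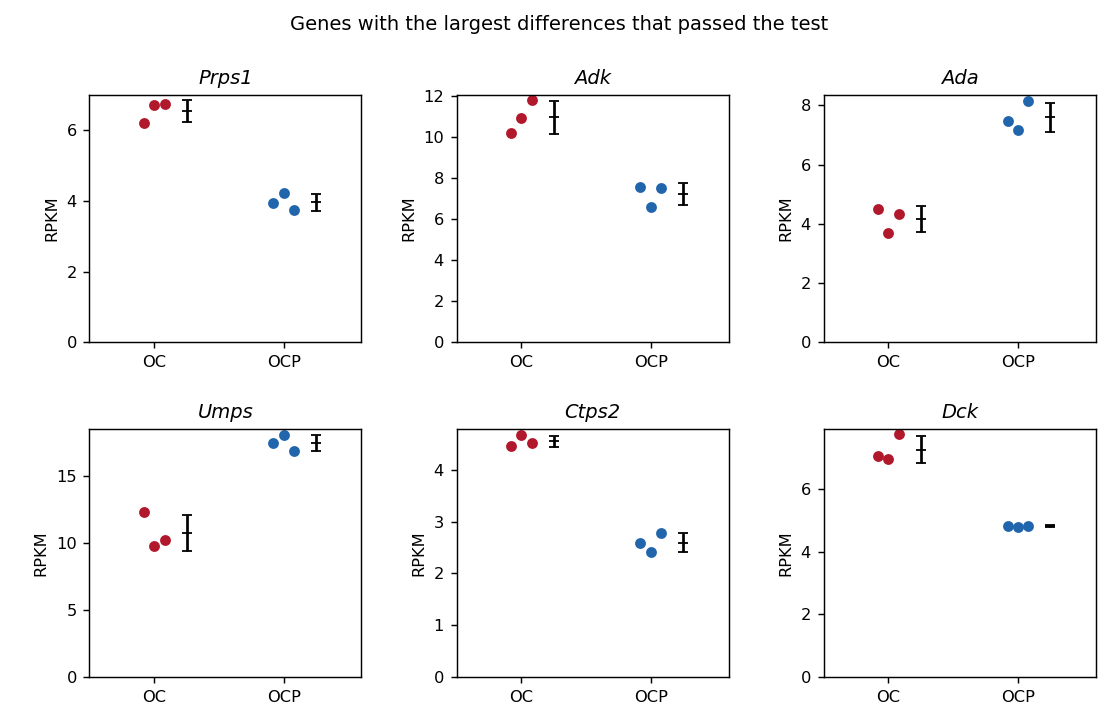
RPKM of the 6 genes that passed with an absolute log2 fold change of at least 0.5, in the 3 OC libraries (left, red) and the 3 OCP libraries (right, blue) of each panel, with the mean and SD beside the points. Prps1, Adk, Ctps2 and Dck were higher in every OC library than in any OCP library, and Ada and Umps were lower.

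Of the 6 enzymes that lead from PRPP to IMP 4 fell (66.7%, against 32.1% of all tested genes) and 1, Paics, rose (16.7%, against 23.5%). Ppat, the amidotransferase that commits PRPP to purines, had 5.91, 6.83 and 7.0 RPKM in OC and 8.27, 7.72 and 8.26 RPKM in OCP, and it fell (log2 fold change -0.26, SE 0.07, adjusted p = 0.013). Gart, a trifunctional enzyme of the early ring steps on chromosome 16 (91621186 to 91646952), fell to 15.9 ± 0.772 RPKM in OC, against 20.1 ± 0.559 RPKM in OCP (SD, n = 3 each; -0.32, adjusted p = 0.0011). An antisense gene, Gm15964, shares 19.7% of the exon bases of Gart and was at 2.98 RPKM in OC and 2.83 RPKM in OCP on average. Adsl, the adenylosuccinate lyase, which acts both on the way to IMP and in making AMP, had the largest fall of these steps. It had 13.3, 14.2 and 12.9 RPKM in OC and 19.1, 19.6 and 19.3 RPKM in OCP (-0.49, SE 0.05, adjusted p = 9.7e-05). Atic, which closes the ring, fell to 7.70 ± 0.235 RPKM in OC, against 10.2 ± 0.630 RPKM in OCP (-0.36, adjusted p = 0.0012). Pfas, the amidotransferase of the ring's middle steps, was at 2.00 ± 0.116 RPKM in OC and 2.34 ± 0.0730 RPKM in OCP and did not pass (-0.16, adjusted p = 0.065), though it was lower after quantile normalization (adjusted p = 0.022) and in limma without trend and robust options (adjusted p = 0.036).

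Paics, which carries the carboxylase and the following ligase step, had 20.3, 19.8 and 20.6 RPKM in OC and 19.7, 15.5 and 16.5 RPKM in OCP (log2 fold change 0.23, SE 0.08, adjusted p = 0.044). OCP replicate 1 stood almost at the OC level. The call of Paics was lost in 7 of 14 alternatives, with adjusted p up to 0.12, including the fits that left out an OC library (each of the 3 in turn), OCP replicate 2 or OCP replicate 3. The RPKM of Paics was 3.44, 2.90 and 2.95 times that of Ppat in OC and 2.38, 2.00 and 2.00 times in OCP, a ratio chosen after the values were seen and given without a test. The exons they share on opposite strands make up 6.15% of the exon bases of Ppat and 8.67% of those of Paics, and reads there cannot be assigned without the strand setting of the counting.

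Of the 4 genes that lead from IMP to GMP or AMP 1 fell and 3 did not pass. Impdh2, the inosine monophosphate dehydrogenase isoform known for rising in dividing cells, had 22.1, 22.6 and 20.2 RPKM in OC and 25.2, 25.6 and 25.7 RPKM in OCP, and it fell (log2 fold change -0.23, SE 0.05, adjusted p = 0.0067). Its paralog Impdh1 was more abundant per length, at 42.3, 44.8 and 40.0 RPKM in OC and 41.6, 45.9 and 43.8 RPKM in OCP. The groups of Impdh1 overlapped, and the 95% interval of its log2 fold change ran from -0.18 to 0.09. Gmps, the GMP synthetase, was at 5.32 ± 0.484 RPKM in OC and 5.76 ± 0.538 RPKM in OCP, and Adss, the adenylosuccinate synthetase, at 23.4 ± 1.37 RPKM in OC and 25.6 ± 2.41 RPKM in OCP. Neither of these passed, with adjusted p of 0.34 and 0.22. Guk1, which turns GMP into GDP, fell to 9.82 ± 0.646 RPKM in OC, against 12.7 ± 0.349 RPKM in OCP (-0.34, adjusted p = 0.0014).

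The 2 enzymes that act on adenosine moved in opposite directions. Adk, the kinase that returns adenosine to AMP, had 10.2, 10.9 and 11.8 RPKM in OC and 7.58, 6.62 and 7.53 RPKM in OCP (chromosome 14, 21052574 to 21448568). It rose 1.52-fold (log2 fold change 0.54, SE 0.07, adjusted p = 0.00044). Ada, the deaminase that turns adenosine and deoxyadenosine into inosine and deoxyinosine, had 4.51, 3.68 and 4.32 RPKM in OC and 7.48, 7.18 and 8.14 RPKM in OCP (chromosome 2, 163726584 to 163750239, minus strand). This was the largest fall of the list, to 0.549 of the OCP mean (-0.74, SE 0.08, adjusted p = 0.00013). The groups did not overlap for either gene.

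Among the base salvage enzymes Hprt, which recycles hypoxanthine and guanine, was at 48.1, 41.2 and 48.9 RPKM in OC and 39.4, 32 and 33.1 RPKM in OCP. It rose (log2 fold change 0.40, SE 0.09, adjusted p = 0.0080), and the lowest OC library was only slightly above OCP replicate 1. Aprt, which recycles adenine, was at 38.4 ± 1.53 RPKM in OC and 39.4 ± 1.82 RPKM in OCP. Pnp, the phosphorylase that releases the bases, was at 48.2 ± 2.04 RPKM in OC and 48.1 ± 2.96 RPKM in OCP. Neither passed, and the 95% intervals of their log2 fold changes ran from -0.16 to 0.09 for Aprt and from -0.13 to 0.14 for Pnp. The transcripts of Pnp and its neighbour Pnp2 are 97.2% identical over 1084 aligned bases, so the split of reads between them is uncertain. Pnp2, given for that reason, fell, to 12.5 ± 0.388 RPKM in OC, against 14.1 ± 0.734 RPKM in OCP (-0.16, adjusted p = 0.034).

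**Figure D3:**
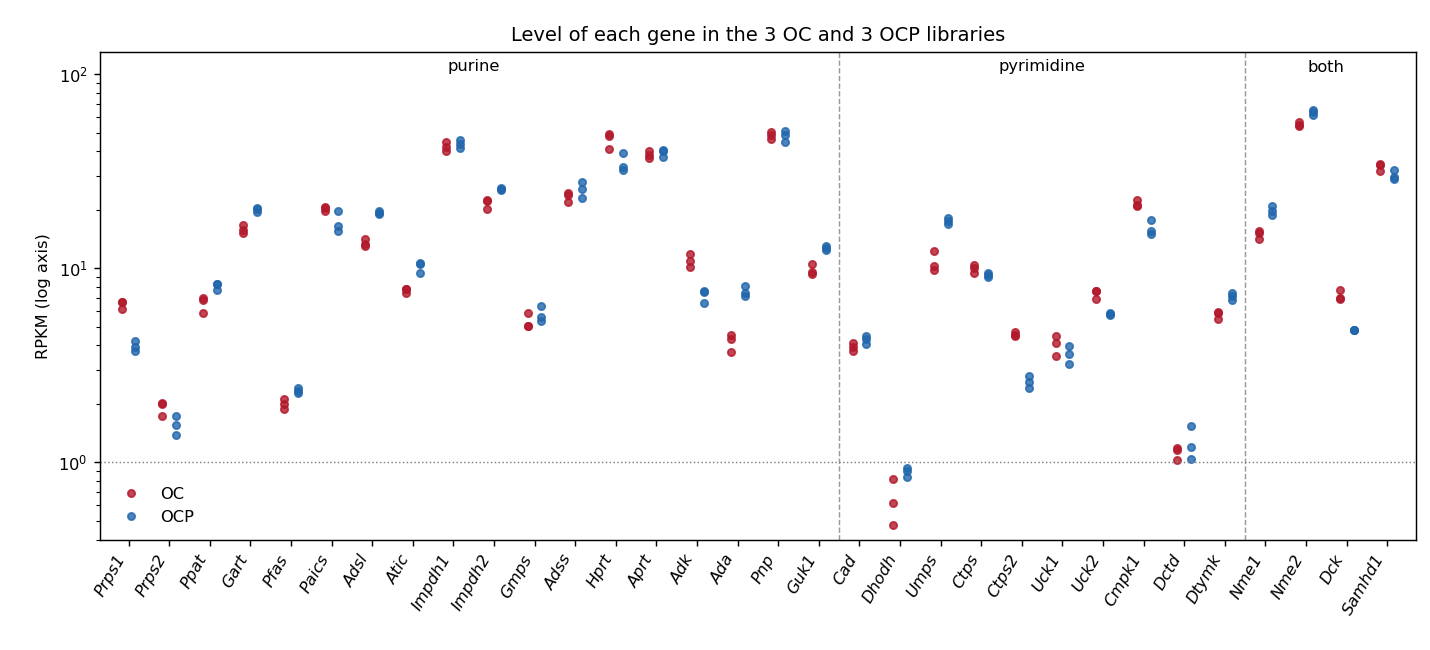
RPKM on a log axis of all 32 genes in the 3 OC libraries (left, red) and the 3 OCP libraries (right, blue). Dashed lines part the purine genes, the pyrimidine genes and those that serve both, and the dotted line marks 1 RPKM. Nme2 had the highest mean level and Dhodh the lowest.

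In the pyrimidine branch the last enzyme of de novo synthesis showed the clearest fall. Umps, which joins the ring to PRPP and yields UMP, had 12.3, 9.82 and 10.2 RPKM in OC and 17.5, 18.1 and 16.9 RPKM in OCP (chromosome 16, 33954782 to 33967038, minus strand). It fell to 0.617 of the OCP mean (log2 fold change -0.65, SE 0.08, adjusted p = 0.00029). An antisense gene, Gm15829, shares 213 bases, 6.11% of the exons of Umps, and was at 8.98 RPKM in OC and 14.9 RPKM in OCP on average. Cad, the trifunctional enzyme that starts the pathway, was at 3.93 ± 0.179 RPKM in OC and 4.28 ± 0.222 RPKM in OCP and did not pass (-0.10, adjusted p = 0.21). Dhodh, the mitochondrial dehydrogenase between them, had 182, 130 and 115 reads in OC and 241, 234 and 196 reads in OCP. Its level was 0.639 ± 0.173 RPKM in OC and 0.893 ± 0.0452 RPKM in OCP. Without the filter it did not pass (-0.21, SE 0.09, adjusted p = 0.14), and in voom on the recovered reads it did (-0.48, SE 0.16, adjusted p = 0.016).

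CTP is made from UTP by CTP synthetases, and the less abundant of these rose. Ctps2, on the X chromosome (162901238 to 163032508, plus strand), had 4.47, 4.67 and 4.51 RPKM in OC and 2.60, 2.41 and 2.78 RPKM in OCP. This was the largest rise of the list, 1.75-fold (log2 fold change 0.63, SE 0.06, adjusted p = 8.6e-05). Ctps had 10.4, 9.50 and 9.99 RPKM in OC and 9.21, 9.02 and 9.45 RPKM in OCP. Its groups lay just apart, and it did not pass (0.10, 95% interval -0.02 to 0.22, adjusted p = 0.15), although it did with TMM factors (adjusted p = 0.048).

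Of the salvage kinases of uridine and cytidine 1 passed. Uck2, a uridine-cytidine kinase, had 7.61, 7.62 and 6.90 RPKM in OC and 5.80, 5.90 and 5.74 RPKM in OCP and rose (log2 fold change 0.30, SE 0.06, adjusted p = 0.0028). Its paralog Uck1, at 4.50, 3.51 and 4.10 RPKM in OC and 3.60, 3.99 and 3.21 RPKM in OCP, had overlapping groups and did not pass (0.13, adjusted p = 0.27). Cmpk1, which phosphorylates UMP and CMP, rose to 21.5 ± 0.822 RPKM in OC, against 16.1 ± 1.44 RPKM in OCP (0.39, adjusted p = 0.0016). Of the enzymes that supply thymidine nucleotides, Dtymk, the thymidylate kinase, fell to 5.76 ± 0.265 RPKM in OC, against 7.17 ± 0.305 RPKM in OCP (-0.27, adjusted p = 0.0046). Dctd, the dCMP deaminase, was at 1.12 ± 0.0858 RPKM in OC and 1.26 ± 0.261 RPKM in OCP, and did not pass (-0.09, adjusted p = 0.47).

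The genes that serve both branches also differed among themselves. Dck, the deoxycytidine kinase that salvages deoxynucleosides, had 7.06, 6.93 and 7.75 RPKM in OC, against 4.83, 4.78 and 4.82 RPKM in OCP (chromosome 5, 88764996 to 88783281). It rose 1.51-fold (log2 fold change 0.50, SE 0.06, adjusted p = 0.00020), and the OCP libraries were almost equal. Samhd1, which hydrolyses deoxynucleoside triphosphates and limits retroviruses in myeloid cells, was at 33.3 ± 1.41 RPKM in OC and 30.2 ± 1.80 RPKM in OCP. It did not pass (0.14, adjusted p = 0.073) but did in 4 alternatives, TMM factors, quantile normalization, voom and leaving out OCP replicate 1.

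The diphosphate kinases, which fill up the triphosphate pools, fell. Nme1 had 15.6, 14.1 and 15.3 RPKM in OC and 20.8, 19.7 and 18.8 RPKM in OCP (log2 fold change -0.38, SE 0.06, adjusted p = 0.00090). Nme2, the most abundant gene of the list, had 56.9, 54.4 and 54.2 RPKM in OC and 63.8, 61.5 and 65.6 RPKM in OCP (-0.20, SE 0.05, adjusted p = 0.0057), a call lost after quantile normalization (adjusted p = 0.061). Both lie on the minus strand of chromosome 11 (93956979 to 93968521 and 93949814 to 93956259). The read-through gene Gm20390 lies over both, and all 991 of its exon bases are exon bases of Nme1 or Nme2. Its reads came to between 95.8% and 96.9% of the sum of both genes in each library, so the values of these 3 genes are not independent of each other, and how the counting treated the shared exons was not given in the labels.

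Paralogs were then compared within each library, where scaling between libraries does not enter the log2 ratio of RPKM. The ratio of Ctps to Ctps2 was 2.32, 2.03 and 2.21 in OC and 3.55, 3.74 and 3.40 in OCP, a difference of -0.70 on the log2 scale. Prps1 to Prps2 was 3.10, 3.85 and 3.32 in OC and 2.27, 2.72 and 2.72 in OCP (difference 0.42), and Impdh1 to Impdh2 was 1.91, 1.98 and 1.98 in OC and 1.65, 1.79 and 1.70 in OCP (difference 0.19). Nme1 to Nme2 was 0.274, 0.259 and 0.282 in OC and 0.327, 0.321 and 0.286 in OCP (difference -0.20). In these 4 pairs the groups did not overlap. Each had p = 0.10 in the exact two-sided permutation test, the smallest that 3 against 3 libraries allow, and 0.12 adjusted over the 5 pairs. The ratios of Uck1 to Uck2 overlapped (difference -0.18, exact p = 0.40). The transcripts of a pair were 71.8% to 80.4% identical over their best alignment.

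**Figure D4:**
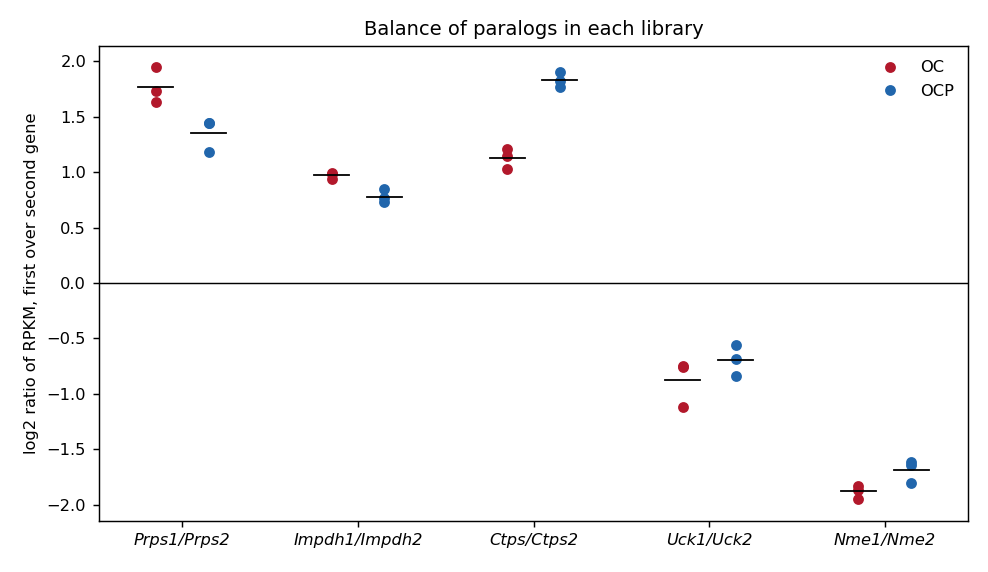
Log2 ratio of the RPKM of the first over the second gene of 5 paralog pairs, in each of the 3 OC libraries (left, red) and 3 OCP libraries (right, blue), with the mean as a line. The groups are apart in 4 pairs and overlap for Uck1 to Uck2.

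By position, the 32 genes were spread over 13 chromosomes, and 4 were on the X chromosome. Prps1, Prps2, Hprt and Ctps2 all had every OC library above every OCP library, and all but Prps2 passed. Among all tested genes 26.7% lay apart in this way, and the share among genes on the X chromosome was not computed. Of the 381 tested genes on the X chromosome 25.5% rose and 24.4% fell. The members that rose had a median exon length of 3280 bases and those that fell of 3342 bases, with ranges of 1289 to 5464 and of 1171 to 7985 bases. Among all tested genes those medians were 3682 bases for genes that rose and 3060 bases for genes that fell.

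Genes of nucleotide metabolism outside the list were taken from a second list of 57 genes, of which 54 were in the table and 42 were tested. Of these 8 rose (19.0%, against 23.5% of all tested genes) and 22 fell (52.4%, against 32.1%), and their median log2 fold change was -0.18, where that of all tested genes was -0.05. After scaling by TMM factors 8 of the 42 rose, against 26.3% of all tested genes, and 17 fell, against 28.5%. Deoxynucleotide supply had 0 that rose and 4 that fell of 10 tested (40.0%, against the same 32.1%). Rrm2, the regulated subunit of ribonucleotide reductase, fell to 5.15 ± 0.265 RPKM in OC, against 6.88 ± 0.645 RPKM in OCP (-0.36, adjusted p = 0.0041), and Tk1, the thymidine kinase of dividing cells, to 3.53 ± 0.293 RPKM in OC, against 4.45 ± 0.432 RPKM in OCP (-0.26, adjusted p = 0.022).

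Interconversion of nucleotides had 4 genes that rose and 10 that fell of 17 tested, 23.5% and 58.8%, against 23.5% and 32.1% of all tested genes. Ak4, a mitochondrial adenylate kinase, had 6.61, 6.40 and 6.50 RPKM in OC and 1.12, 1.23 and 1.27 RPKM in OCP (log2 fold change 1.77, adjusted p = 2.2e-07). Ak1, the cytosolic adenylate kinase, went down, with 11.1, 10.8 and 10.7 RPKM in OC and 21.9, 24.0 and 21.5 RPKM in OCP (-0.98, adjusted p = 4.3e-06). Ampd3, an AMP deaminase, rose to 14.9 ± 0.955 RPKM in OC, against 10.9 ± 0.0465 RPKM in OCP (0.41, adjusted p = 0.00046). Adssl1, the muscle-type adenylosuccinate synthetase, fell to 45.2 ± 2.38 RPKM in OC, against 73.4 ± 3.85 RPKM in OCP (-0.69, adjusted p = 3.8e-05), and it was above its paralog Adss in every library.

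Breakdown had 4 genes that rose and 6 that fell of 12 tested, 33.3% and 50%, against 23.5% and 32.1% of all tested genes. Gda, the guanine deaminase, rose to 7.92 ± 0.548 RPKM in OC, against 3.74 ± 0.291 RPKM in OCP (log2 fold change 0.91, adjusted p = 2.6e-05). Urah, a hydrolase of urate breakdown, had 94.7, 90.5 and 86.7 RPKM in OC and 0.632, 0.918 and 0.687 RPKM in OCP (5.72, adjusted p = 1.8e-09). The antisense gene C330022C24Rik shares 12.4% of the exon bases of Urah and was at 5.51 RPKM in OC and 0.0147 RPKM in OCP on average, so part of these reads cannot be placed without strand. Xdh, the xanthine dehydrogenase that makes urate and is named here after its values were seen, rose to 22.8 ± 0.649 RPKM in OC, against 16.1 ± 0.340 RPKM in OCP (0.48, adjusted p = 7.1e-05). Tymp, the thymidine phosphorylase, fell to 2.79 ± 0.546 RPKM in OC, against 4.65 ± 0.456 RPKM in OCP (-0.59, adjusted p = 0.0025), but 42.0% of its exon bases lie in Sco2 on the same strand and 26.3% in Ncaph2 on the other. Nt5m, a mitochondrial nucleotidase, fell to 3.17 ± 0.244 RPKM in OC, against 4.09 ± 0.150 RPKM in OCP (-0.29, adjusted p = 0.0059).

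Of the nucleoside transporters 3 were tested and 2 fell, too few to set against the 32.1% of all tested genes. Slc29a1, the equilibrative transporter, was at 6.51 ± 0.253 RPKM in OC and 9.28 ± 0.183 RPKM in OCP (log2 fold change -0.45, adjusted p = 0.00019). Slc28a2, a sodium-coupled transporter that prefers purine nucleosides, was at 7.74 ± 0.458 RPKM in OC and 11.2 ± 0.280 RPKM in OCP (-0.48, adjusted p = 0.00023).

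**Figure D5:**
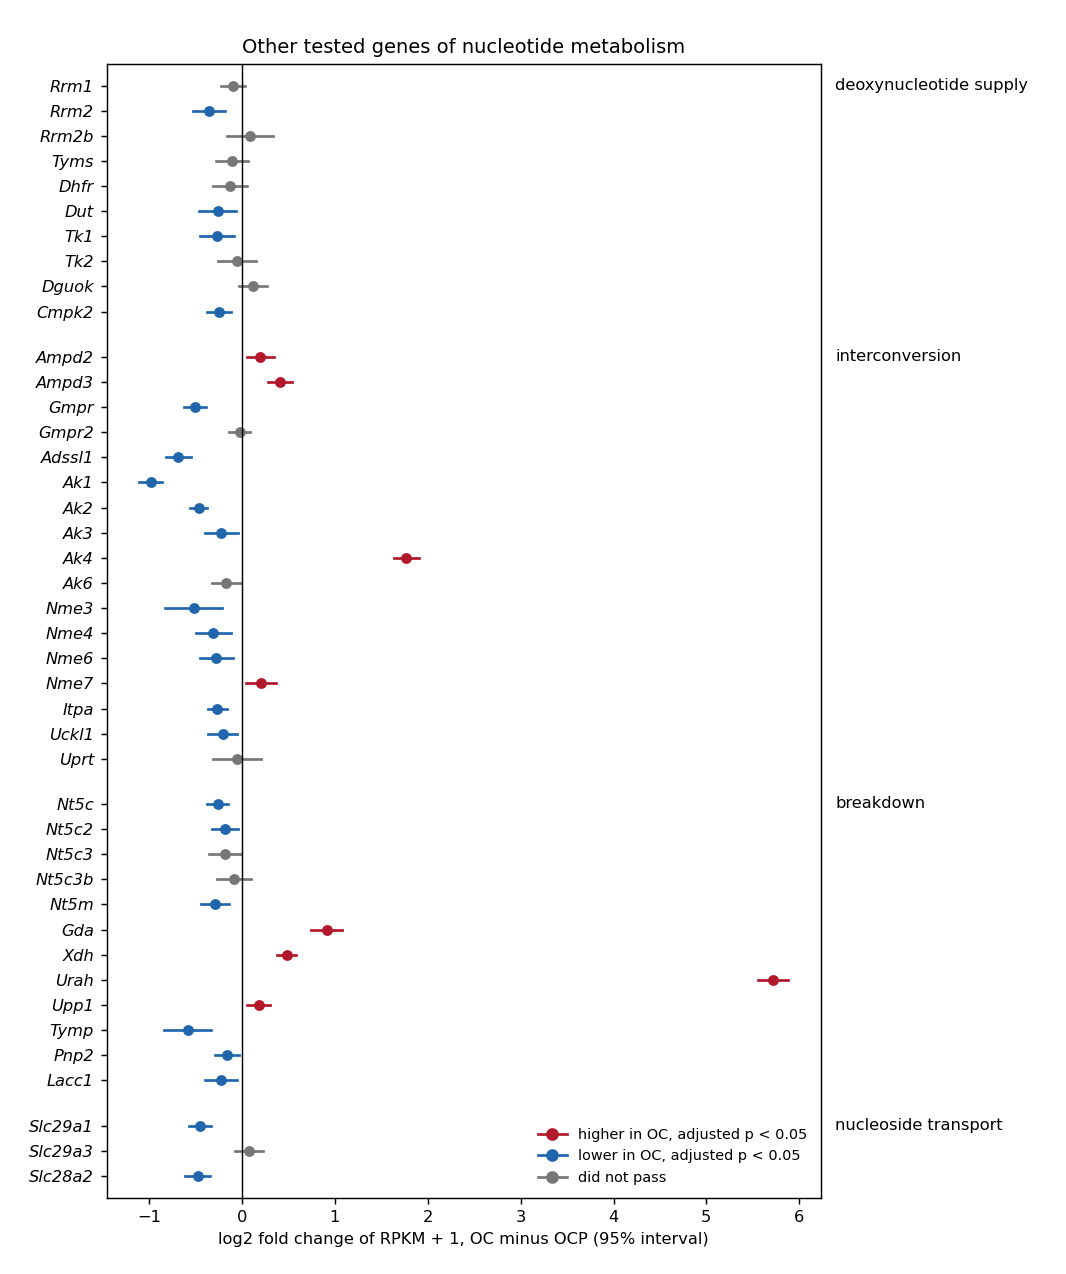
Log2 fold change of RPKM + 1 (OC minus OCP, horizontal axis) of the 42 tested genes of nucleotide metabolism outside the list, by sublist from top to bottom, with 95% intervals that are not adjusted for the number of genes. Urah stands apart at 5.72, followed by Ak4 at 1.77, and Ak1 is lowest at -0.98.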

How the data were processed

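The authors' deposited table holds RPKM values for 6 RNA-seq libraries. Trimmomatic 0.36, STAR 2.5.3a and featureCounts (no version) are the tools listed in the submitters' processing notes. The same notes name GRCh38, but the table lists mouse genes, and 22340 of them have the start and end of GENCODE M21 on GRCm38 (29 of the 32 members). The labels give no strand or multi-mapping setting.

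RPKM times gene length gave whole reads for 100% of the values within 0.01 reads. Replicates differed by more than sampling noise (chi-square divided by its degrees of freedom was 5.18 to 21.4), so no pair was treated as a repeat deposit of 1 library, which does not show that they came from separate cultures. Genes were tested with limma 3.58.1 (R 4.3.3) on log2(RPKM + 1) with trended, robust variance and Benjamini-Hochberg adjustment over 12301 genes. The steps were tested on simulated data. The replicate numbers did not pair the libraries. All members were to be named, with a value per library for those that passed with an absolute log2 fold change of at least 0.5 and for the 5 paralog pairs, and outside the list the 2 largest rises and falls per sublist. Values per library of Ppat, Paics, Adsl and Hprt, reads of Dhodh, and Pnp2, Uckl1 and Xdh were added after their values were seen. The members and lists were chosen with earlier results of these data known. Pseudogenes and paralogs were aligned with blastn 2.17.0. Figures were drawn with matplotlib 3.10.9. Alternatives were a pseudocount of 0.1, a mean of at least 5 RPKM as the filter, no filter, TMM factors, quantile normalization, limma without trend and robust options, the replicate block, leaving out each replicate, and voom on recovered reads.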

Additional observations from a re-analysis of the deposited data

How the results depend on the processing

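Of the 19 members that rose or fell, 17 passed in every one of the 14 alternatives in which they were tested, Paics and Nme2 being the exceptions, and 0 changed direction. Across the alternatives 7 to 11 members rose and 11 to 12 fell. Of the genes outside the list 7 rose and 16 fell of 54 without the filter, against 8 and 22 of 42 in the main fit. Leaving out 1 replicate gave 5 to 7 genes outside the list that rose, against 8, and 14 to 18 that fell, against 22. The lowest values came without OC replicate 1 (5 and 14) and without OCP replicate 3 (5 that rose), with fewer samples in each fit. Members that did not pass changed sign in some settings: Impdh1 (0.041 after quantile normalization), Aprt (0.0061 with TMM factors, 0.043 after quantile normalization and 0.013 by voom), Pnp (-0.041 to 0.045 with 1 replicate left out) and Dctd (-0.16 to 0.0031 with 1 replicate left out); the cause was not tested. With the replicate number as a block 8 members rose and 11 fell, as without it. The deviations of same-numbered libraries correlated at -0.11, 0.14 and 0.014, and OC replicates 1 and 3 each correlated best with another number, so the numbers were not taken as pairs. The 5 paralog differences kept their sign in the settings tried on them. Pseudogenes paired with a member held at most 0.884% of its reads.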

Other observations

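Several genes of nucleotide breakdown and transport were too low for the test. Cda, the cytidine deaminase, had 59, 40 and 30 reads in OC and 16, 26 and 14 reads in OCP. Its levels of 1.18 ± 0.434 RPKM in OC and 0.456 ± 0.153 RPKM in OCP did not overlap, and it was higher in voom on the recovered reads (log2 fold change 1.37, SE 0.36, adjusted p = 0.0025). Ak5, an adenylate kinase known from brain, had 19, 9 and 12 reads in OC and 58, 55 and 33 reads in OCP and was lower in the same fit (-1.66, SE 0.36, adjusted p = 0.00044). Both genes were named after their values were seen. Dpyd, which starts pyrimidine breakdown, had 0 reads in the OC libraries and 2, 0 and 2 reads in the OCP libraries.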
